A study of Mus musculus with 2 samples.

Results

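The expression of 10 genes of epithelial cell junctions and simple-epithelium filaments was compared between 2 mouse embryonic stem cell cultures, 1 labelled Mof null and 1 labelled wild type. The 10 genes are Cdh1, Epcam, Cldn3, Cldn4, Cldn6, Cldn7, Krt7, Krt8, Krt18 and Krt19. They were taken by symbol, with every probe set of the array that is annotated to exactly 1 gene, which gave 16 of 34945 such probe sets and 10 of 18193 genes. The annotation held 0 probe sets that name a member together with another gene. The rule uses symbols and no measured value, although the genes were picked with earlier results of these data known. Of the 10 genes, 7 were read by 1 probe set, Epcam by 2, Krt8 by 3 and Cldn3 by 4.

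The Mof null array came from a culture labelled MOF-/- and the wild type array from a culture labelled MOF +/+. Both lines were of strain C57BL/6, were derived from embryos at 3.5 days post coitum and were used at passage 15 to 18. Embryonic stem cells are pluripotent cells of the early embryo, and Kat8 is the gene symbol of Mof, which acetylates histone H4. Both cultures had been kept with LIF on a layer of embryonic fibroblasts and then went through 2 passages without that layer. The labels give neither the allele nor how Mof was removed, and each genotype is 1 culture on 1 array. No difference below therefore has a replicate error or a test.

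E-cadherin, encoded by Cdh1, joins neighbouring epithelial cells at adherens junctions and is linked to actin through catenins. Claudins are membrane proteins that form the strands of tight junctions and set which ions pass between cells, and Epcam is an epithelial surface protein that binds claudin-7. Keratins 8 and 7 are type II chains and keratins 18 and 19 type I chains; a filament needs a chain of each type, and these are the keratins of simple epithelia. Mouse embryonic stem cells grow as compact colonies held by E-cadherin, and fibroblasts carry N-cadherin and vimentin in place of E-cadherin and keratin filaments.

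All values are RMA values on a log2 scale, and each difference is the Mof null value minus the wild type value. A gene is represented by its probe set with the higher mean over both arrays, called its brightest probe set. It is called expressed where its value on at least 1 array was 6.02 or more, which is the median of all values, and it is counted where the difference was at least 1, which is 2-fold. As a yardstick of size, the spread between probe sets within a gene was used. Over 5362 genes read by more than 1 expressed probe set, its pooled SD was 0.33. This spread comes from the same 2 arrays, holds no variation between cultures or arrays, and cannot replace a replicate error. The median expressed gene differed by 0.10. Kat8 (Entrez gene 67773) had a value of 8.37 on the Mof null array and 8.06 on the wild type array, so its 1 probe set was not lower on the array labelled null. No source used here places this probe set relative to the removed part of the gene, and each direction below rests on the labels.

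The junction genes were higher on the Mof null array, whereas the keratins were lower or nearly level. All 6 junction genes, Cdh1, Epcam and the 4 claudins, had higher values on the Mof null array as deposited (4 of the 6 relative to embryonic stem cell markers, where Cldn3 and Cldn4 turned negative), and 3 of them, Epcam, Cldn6 and Cldn7, were at least 2-fold higher. Of all expressed genes, 56.7% had a higher value on the Mof null array as deposited. Of the 4 keratin genes, Krt7 was at least 2-fold lower on the Mof null array and the other three differed by 0.35 or less in size. Thus 3 of the 10 members were at least 2-fold higher, against 5.09% of the 12015 expressed genes, and 1 was at least 2-fold lower, against 11.9%. Over all 18193 genes with no filter on level these shares were 3.5% and 8.25%. All 10 passed the level filter; Cldn3 did so through the Mof null array, its wild type value of 6.01 lying just under the threshold. The median difference of the 10 genes was 0.47, beside 0.10 for all expressed genes. Relative to the median of embryonic stem cell marker genes, which lowers every difference by 0.74, the median of the members was -0.27 and Cldn3, Cldn4 and Krt8 changed sign, while the other seven kept theirs. That scaling puts the median expressed gene at -0.64, and 0.499% of the expressed genes then reach 2-fold higher and 29.4% reach 2-fold lower.

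**Figure D1:**
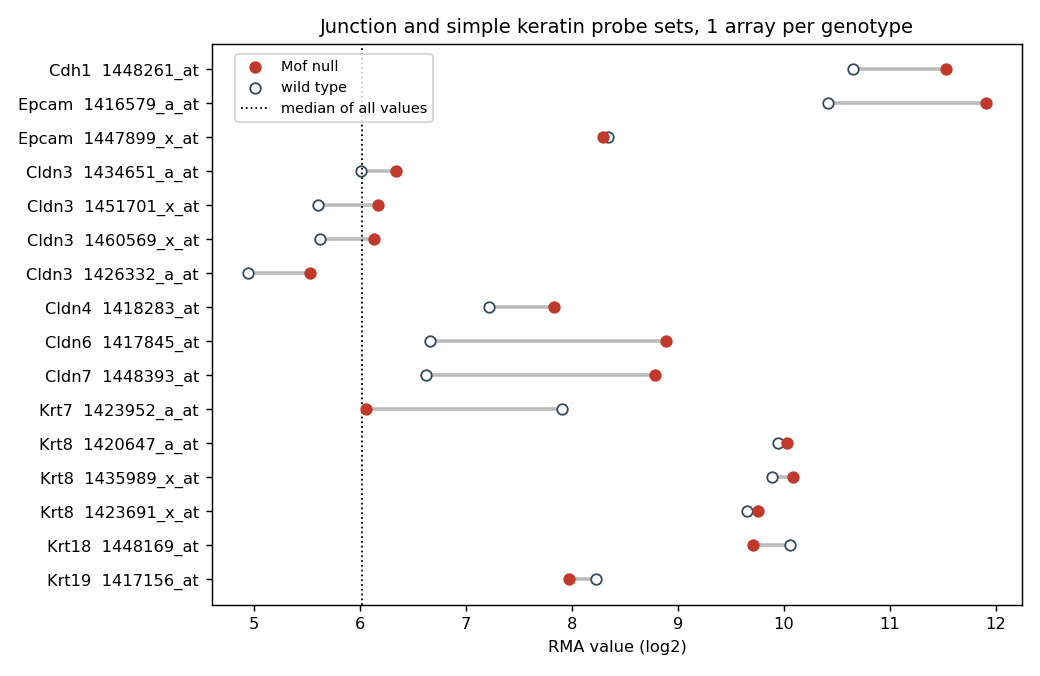
RMA values (log2, horizontal axis) of the 16 probe sets of the 10 genes on the Mof null array (filled) and the wild type array (open), joined by a line for each probe set; the dotted line is the median of all values, 6.02. The longest lines belong to Cldn6, Cldn7 and Krt7, the last with the Mof null value on the left, and the lower of the Epcam probe sets shows almost no line.

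Cdh1 (Entrez gene 12550) had a value of 11.53 on the Mof null array and 10.65 on the wild type array. The difference of 0.87, or 1.83-fold higher on the Mof null array, is larger than the spread between probe sets and stays under 2-fold. Relative to the embryonic stem cell markers it was 0.13. Among expressed genes with a mean level within 0.5 of its own, 95.9% had a smaller difference, as did 92.5% of all expressed genes.

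Epcam (Entrez gene 17075) was read by 2 probe sets that disagreed. The brightest, with the suffix _a_at, had a value of 11.90 on the Mof null array and 10.41 on the wild type array, a difference of 1.49 or 2.81-fold. The other, with the suffix _x_at, had values of 8.29 on the Mof null array and 8.34 on the wild type array, a difference of -0.05. That suffix marks probe sets whose probes can match other transcripts. The span of 1.54 between these differences exceeds the pooled SD of 0.33, and with the mean of both probe sets the Epcam difference was 0.72, under 2-fold. The 2-fold count of Epcam therefore rests on its brightest probe set.

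The claudin genes divided into a pair with large differences and a pair with small ones. Cldn6 (Entrez gene 54419), a claudin of embryonic epithelia, had a value of 8.89 on the Mof null array and 6.66 on the wild type array, which is 4.68-fold higher. Cldn7 (Entrez gene 53624), the claudin bound by Epcam, had a value of 8.78 on the Mof null array and 6.62 on the wild type array, which is 4.48-fold higher. Their differences of 2.23 and 2.16 lay 0.07 apart, and they ranked 22 and 26 among the 12015 expressed genes from the highest difference down. Each is read by 1 probe set, so neither has a second reading on these arrays. Both stayed at least 2-fold higher in every scaling tried, with lowest differences of 1.48 for Cldn6 and 1.42 for Cldn7.

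Cldn3 and Cldn4 are barrier-forming claudins that bind Clostridium perfringens enterotoxin. Cldn4 (Entrez gene 12740) had a value of 7.83 on the Mof null array and 7.22 on the wild type array, a difference of 0.61. The 4 probe sets of Cldn3 (Entrez gene 12739) had values between 5.53 and 6.34 on the Mof null array and between 4.94 and 6.01 on the wild type array. All 4 were higher on the Mof null array, by 0.33 to 0.58, and all wild type values lay under the level threshold. Near this floor RMA compresses differences. The brightest Cldn3 probe set had the smallest of the 4 differences.

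The simple keratins Krt8 and Krt18, the partners of the first filament network of the embryo, differed by less than 2-fold between the arrays as deposited. The 3 Krt8 probe sets (Entrez gene 16691) had values of 10.03, 10.09 and 9.76 on the Mof null array, against 9.95, 9.88 and 9.65 on the wild type array. Their differences of 0.08, 0.20 and 0.11 are all smaller than the spread between probe sets, and that of the brightest turned to -0.02 after centring on the median gene and to -0.08 after correction of the trend with level. Krt18 (Entrez gene 16668) had a value of 9.71 on the Mof null array and 10.06 on the wild type array, a difference of -0.35, slightly more in size than the pooled SD. The Krt8 difference exceeded the Krt18 difference by 0.44, little more than the pooled SD. Krt19 (Entrez gene 16669), a type I keratin of ducts and other simple epithelia, had values of 7.97 on the Mof null array and 8.22 on the wild type array, a difference of -0.26. Relative to the embryonic stem cell markers the differences were -0.66 for Krt8, -1.09 for Krt18, which is then past 2-fold lower, and -0.998 for Krt19.

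Krt7 (Entrez gene 110310), a type II keratin of trophoblast and ductal epithelia, was the keratin that stood apart. It had a value of 6.06 on the Mof null array, near the level threshold, and 7.91 on the wild type array. The difference of -1.85 is 3.60-fold lower on the Mof null array and lay 1.93 below that of Krt8, the other type II chain. From the lowest difference up, Krt7 ranked 511 of 12015 expressed genes, and 5.86% of the genes of like level had a lower difference. It is read by 1 probe set, with the suffix _a_at.

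**Figure D2:**
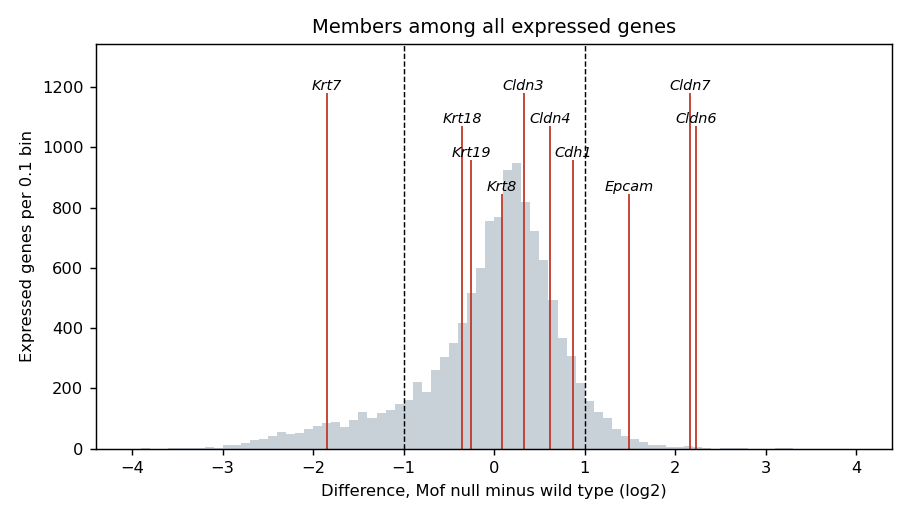
Number of the 12015 expressed genes (vertical axis) in bins of the difference, Mof null minus wild type (log2, horizontal axis), with the brightest probe set of each of the 10 genes marked by a line and dashed lines at 2-fold. Cldn6 and Cldn7 stand in the sparse right tail at 2.23 and 2.16, Krt7 stands in the longer left tail at -1.85, and Krt8 lies near the peak.

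The promoters of the 4 genes past 2-fold are shown because the differences of 3 of them go one way and that of Krt7 the other. The sequences are from RefSeq on build GRCm38.p6, read 5′ to 3′ on the strand of the gene and ending before the first annotated base of the gene. For Cldn6 that base lies upstream of the start site used for the motif search, so the last 17 bases of its searched window are not printed. Capitals mark CAGGTG or its reverse complement CACCTG, the E-box bound by Snail and Zeb repressors in mammalian cells.
Epcam, chr17:87635729-87635978, plus strand: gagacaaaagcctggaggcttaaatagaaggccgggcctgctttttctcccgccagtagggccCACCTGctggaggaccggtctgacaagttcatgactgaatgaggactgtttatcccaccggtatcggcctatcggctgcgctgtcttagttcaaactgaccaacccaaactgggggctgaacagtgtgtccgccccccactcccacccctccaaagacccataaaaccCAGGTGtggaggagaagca
Cldn6, chr17:23679115-23679347, plus strand: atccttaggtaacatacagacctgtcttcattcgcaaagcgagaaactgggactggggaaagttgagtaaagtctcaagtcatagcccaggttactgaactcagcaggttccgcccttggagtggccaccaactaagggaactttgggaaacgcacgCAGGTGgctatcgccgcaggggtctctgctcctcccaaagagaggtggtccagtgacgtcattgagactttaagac
Cldn7, chr11:69964529-69964778, plus strand: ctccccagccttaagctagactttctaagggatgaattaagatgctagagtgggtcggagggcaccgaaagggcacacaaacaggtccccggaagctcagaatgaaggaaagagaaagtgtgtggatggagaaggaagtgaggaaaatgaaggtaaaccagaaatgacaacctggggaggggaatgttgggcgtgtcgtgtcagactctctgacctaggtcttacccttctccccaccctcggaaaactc
Krt7, chr15:101412153-101412402, plus strand: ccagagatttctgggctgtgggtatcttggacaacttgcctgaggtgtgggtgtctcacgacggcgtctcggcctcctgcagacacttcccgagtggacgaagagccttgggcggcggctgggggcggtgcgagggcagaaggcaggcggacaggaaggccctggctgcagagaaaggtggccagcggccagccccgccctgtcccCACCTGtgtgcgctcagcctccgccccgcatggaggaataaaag
The table of promoters held 8 of the 10 members, and Cdh1 and Krt19 had no entry. In the 250 bases before the start site, searched on both strands, the E-box was found in 6 of the 8, namely Epcam, Cldn4, Cldn6, Krt7, Krt8 and Krt18. Over 32851 promoter windows of the same length 17.2% held it. Epcam held 2, beginning 187 and 19 bases before the start site, and Cldn6 held 1, at 93 bases. Krt7, whose difference has the opposite sign, also held 1, at 44 bases, and Krt8 held 1 at 111 bases. Cldn7 held none before the first of its 2 annotated start sites. The letters of the E-box were thus present in genes that were higher, lower and nearly level. The GC box GGGCGG, likewise searched on both strands and found in 32.7% of all windows, occurred in Epcam, Cldn3, Cldn4, Cldn6 and Krt7, 4 times in the last. The letters TATAAA, in 12.4% of windows, and the Grainyhead-like motif AACCGGTT, in 0.116%, were in 0 of the 8 windows. No match in these windows overlapped another.

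The other genes of the same structures gave the members their context. The 10 lists of such genes held 97 expressed genes, of which 17 reached 2-fold higher on the Mof null array and 14 reached 2-fold lower. Over all expressed genes these shares were 5.09% and 11.9%. Tight junction partners and polarity genes lay mostly on the side of the claudins. Of 22 expressed genes, 20 were above 0, against 56.7% of all expressed genes, 5 reached 2-fold higher and 0 reached 2-fold lower. Their median difference of 0.45 became -0.29 relative to the embryonic stem cell markers. Ocln, the tight junction protein occludin, had values of 7.66 on the Mof null array and 6.06 on the wild type array. Cgn, the junction plaque protein cingulin, had 8.48 on the Mof null array and 6.90 on the wild type array, although its other probe set differed by -0.08. The scaffold gene Tjp3, the kinase gene Prkcz and Marveld2, which encodes tricellulin, were higher by 2.78-fold, 2.19-fold and 2.17-fold, and a Prkcz probe set differed by 0.44. Tjp3 and Marveld2 passed the level filter only through the Mof null array, their wild type values being 5.65 and 5.13. Tjp1, which encodes the main scaffold ZO-1, differed by 0.19.

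Other claudin genes were mostly too dim to compare. Of 17 measured, 2 were expressed, Cldn12 with a difference of -0.23 and Cldn14 with 0.58, and 0 were past 2-fold even with no filter on level. Desmosome genes went both ways. Of 8 expressed, Dsp, which encodes desmoplakin, and the desmosomal cadherin gene Dsg2 were higher by 2.50-fold and 2.20-fold, with other probe sets as low as 0.25 for Dsp and 0.50 for Dsg2, and Perp, a desmosome protein that is also a p53 target, was 3.73-fold lower. Their median was 0.65, which became 0.10 over all 13 measured desmosome genes and -0.09 relative to the embryonic stem cell markers.

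The catenin, nectin and actin-linker genes of adherens junctions had differences near or below 0 in most cases. Of 10 expressed, 0 were at least 2-fold higher, and Vcl, which encodes vinculin, was 2.21-fold lower, with its other probe set at -0.70. The highest was Afdn, at 0.67, with its other probe set at 0.20. The β-catenin gene Ctnnb1 had values of 13.55 on the Mof null array and 13.47 on the wild type array, near the top of the scale, and its other probe sets differed by up to 0.71. Jup, which encodes plakoglobin, differed by -0.57. Other cadherin genes were mostly lower on the Mof null array. Of 5 expressed, 2 reached 2-fold lower, 0 reached 2-fold higher and 1, Cdh4, was above 0, at 0.58. Their median was -0.99, or -0.35 with no filter on level. Cdh3 differed by -0.99, just under 2-fold, with its other probe set at -0.22. Cdh13 differed by -0.88, with other probe sets up to 0.34. N-cadherin, Cdh2, had 7.89 on the Mof null array and 10.31 on the wild type array, and Cdh11, a cadherin of mesenchyme, had 9.75 on the Mof null array and 12.06 on the wild type array. Cdh2 and Cdh11 were lower on each of their 2 probe sets.

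Among filament genes outside the simple keratins, 5 of 23 measured keratin genes were expressed and 0 were past 2-fold. Krt42 had the largest positive difference of these, 0.46, and Krt20 was at -0.73. Vim, the mesenchymal filament vimentin, had values of 12.71 on the Mof null array and 13.95 on the wild type array, and all 3 of its probe sets were at least 2-fold lower. Des, the muscle filament desmin, was 2.30-fold lower, and Prph, the neuronal filament peripherin, was 2.51-fold higher, though for each gene another probe set differed by less than 2-fold. Prph passed the level filter only through the Mof null array, its wild type value being 5.73.

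**Figure D3:**
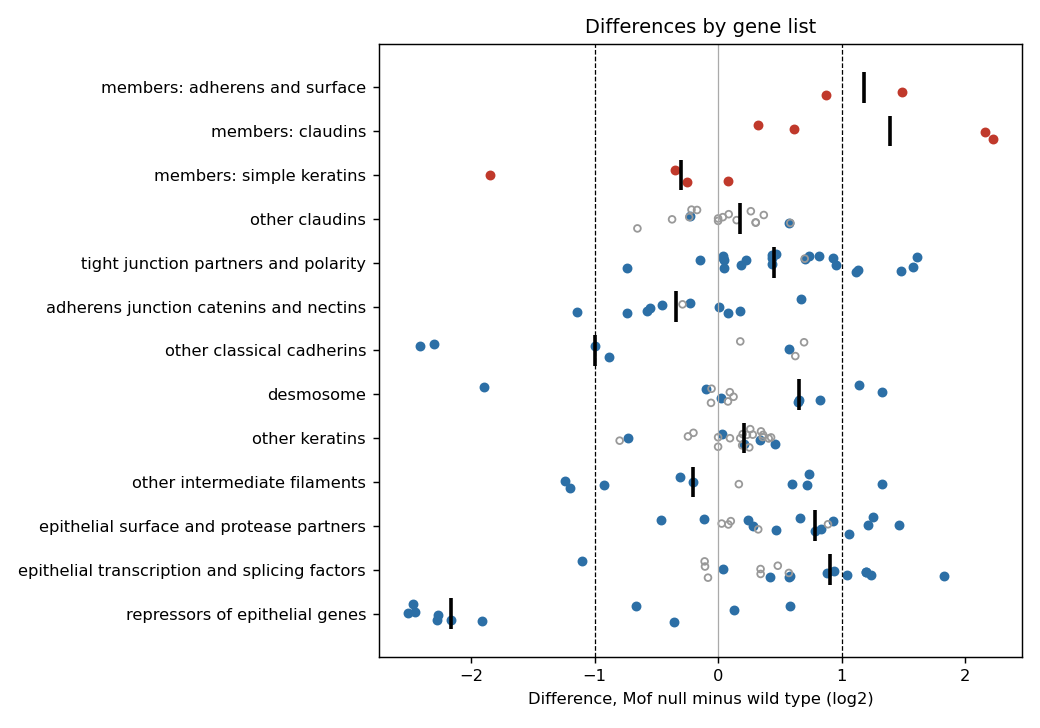
Difference of each gene, Mof null minus wild type (log2, horizontal axis), by gene list; filled points are expressed genes, with the 10 members in red, open points are genes under the level threshold, bars are medians of the expressed genes and dashed lines mark 2-fold. The claudin points form a low and a high pair, the keratin points lie near 0 except Krt7, and 7 of the 11 repressor genes lie beyond -1.

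Genes of epithelial surfaces and their regulators were examined beside the members. Of 13 expressed surface and protease genes, 4 reached 2-fold higher and 0 reached 2-fold lower, and the median was 0.78, or 0.04 relative to the embryonic stem cell markers. These 4 were Prss8, a membrane serine protease, at 2.76-fold, Tspan8 at 2.39-fold, and Spint2 and Spint1, inhibitors of such proteases, at 2.32-fold and 2.09-fold. Prss8 passed the level filter only through the Mof null array, its wild type value being 5.62. Spint2 inhibits proteases that can cleave Epcam, and both of its probe sets were past 2-fold, whereas a probe set of Tspan8 differed by -0.06.

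Of 12 expressed transcription and splicing factor genes of epithelia, 5 reached 2-fold higher, 1 reached 2-fold lower and the median was 0.91, or 0.17 relative to the embryonic stem cell markers. Esrp1, which directs epithelial splicing, had values of 6.70 on the Mof null array and 4.87, under the level threshold, on the wild type array. Tfap2c, Elf3, Grhl3 and Foxa2, all transcription factor genes, were higher by 2.35-fold, 2.29-fold, 2.29-fold and 2.06-fold. Gata3, a factor of trophoblast and some epithelia, was the gene that was lower, at 4.92, under the level threshold, on the Mof null array and 6.02 on the wild type array. Grhl2, known to activate Cdh1 and Cldn4 in kidney epithelium, differed by 0.94, with other probe sets as low as 0.12. Tfap2c and Gata3 also stand in the trophoblast marker list below, Foxa2 in the endoderm list and Tfcp2l1 in the embryonic stem cell list. The counts of these lists are therefore not independent.

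The repressors of epithelial genes lay opposite to the junction genes. Of 11 expressed genes, 7 reached 2-fold lower on the Mof null array and 0 reached 2-fold higher, and the median was -2.17. Snai1, a repressor of Cdh1, had values of 6.20 on the Mof null array and 8.11 on the wild type array, and Zeb2, another, had 7.28 on the Mof null array and 9.75 on the wild type array, with a smaller difference of -0.39 on another probe set. Twist2, Foxc2, Prrx1, Snai2 and Twist1 were lower by 5.70-fold, 5.48-fold, 4.85-fold, 4.81-fold and 4.48-fold, although a Prrx1 probe set differed by 0.16. Foxc2 passed the level filter only through the wild type array, its Mof null value being 4.30. Zeb1 differed by -0.67, with other probe sets up to 0.25, and Tcf3, which encodes the E-box factor E2A, by 0.58. Fibroblasts are known to express Snai2, Twist1, Twist2 and Prrx1, and Twist2 also stands in the fibroblast marker list below.

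Of the expressed genes next to the members on the chromosome, 1 was past 2-fold. The nearest 2 annotated genes on each side of the members gave 18 measured genes that are not members, of which 9 were expressed. Among these 0 reached 2-fold higher and 1 reached 2-fold lower, against 5.09% and 11.9% of all expressed genes. So few genes cannot be told apart from those shares. The lower gene is Tnfrsf12a, the receptor of the cytokine TWEAK, next to Cldn6, with values of 8.93 on the Mof null array and 10.78 on the wild type array, a difference of -1.85. On the other side of Cldn6 lies Cldn9, which was under the level threshold at 5.32 on the Mof null array and 5.24 on the wild type array. Beside Cldn7, Elp5 differed by 0.30 and Ctdnep1 by -0.59. Cldn3 and Cldn4 are each other's neighbours, and the nearby Mettl27 differed by -0.22. Tango6, beside Cdh1, differed by 0.66. Eif4b, near Krt18, differed by 0.46.

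Markers of other cell types moved with these differences. Of all expressed genes, 5.09% reached 2-fold higher and 11.9% reached 2-fold lower. All 15 embryonic stem cell markers were above the level threshold on both arrays, 3 were at least 2-fold higher on the Mof null array and their median difference was 0.74. All 19 measured fibroblast markers were above the threshold on both arrays, which followed the passages without the feeder layer, and 17 were at least 2-fold lower on the Mof null array, with a median of -1.91. Their values summed on the linear scale came to 50116 on the Mof null array and 153441 on the wild type array, a ratio of 0.327. Col1a1, a collagen of fibroblasts, had values of 10.21 on the Mof null array and 13.13 on the wild type array. Of 14 measured macrophage markers, 12 were at least 2-fold lower, and their linear sum was 8958 on the Mof null array and 28704 on the wild type array. Fewer cells of a type and less RNA per cell cannot be told apart in such bulk samples. The part of these cell types in the differences of Cdh1, Epcam, the claudins and Krt7 was not tested.

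Of embryonic epithelia outside the epiblast, endoderm markers were mostly higher on the Mof null array and trophoblast markers went both ways. Of 13 expressed primitive and visceral endoderm markers, 8 were at least 2-fold higher on the Mof null array, against 5.09% of all expressed genes. The median was 1.08, and the linear sum was 22687 on the Mof null array and 17155 on the wild type array. Hnf4a, 1 of the 8, passed the level filter only through the Mof null array, its wild type value being 5.97. Amn, a subunit of an endocytic receptor of visceral endoderm, had values of 10.51 on the Mof null array and 7.40 on the wild type array. Pdgfra, which also stands in the fibroblast list, and Col4a1 were lower on the Mof null array, with differences of -0.90 and -0.30. Scaling to the embryonic stem cell markers lowers each difference of this list by 0.74. Of 10 measured trophoblast markers, 6 were expressed. Of these, 2 reached 2-fold higher and 1 reached 2-fold lower, against 5.09% and 11.9% of all expressed genes, and 6 genes are few to set beside those shares. The trophoblast regulators Cdx2 and Elf5 were under the threshold on both arrays. The linear sum of the trophoblast list was 1560 on the Mof null array and 904 on the wild type array. It rests largely on Tfap2c, the brightest gene of the list, at 9.52 on the Mof null array and 8.29 on the wild type array. Gata3, of the same list, was 2.15-fold lower. The part of these cell types in the differences of the members was likewise not tested.

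**Figure D4:**
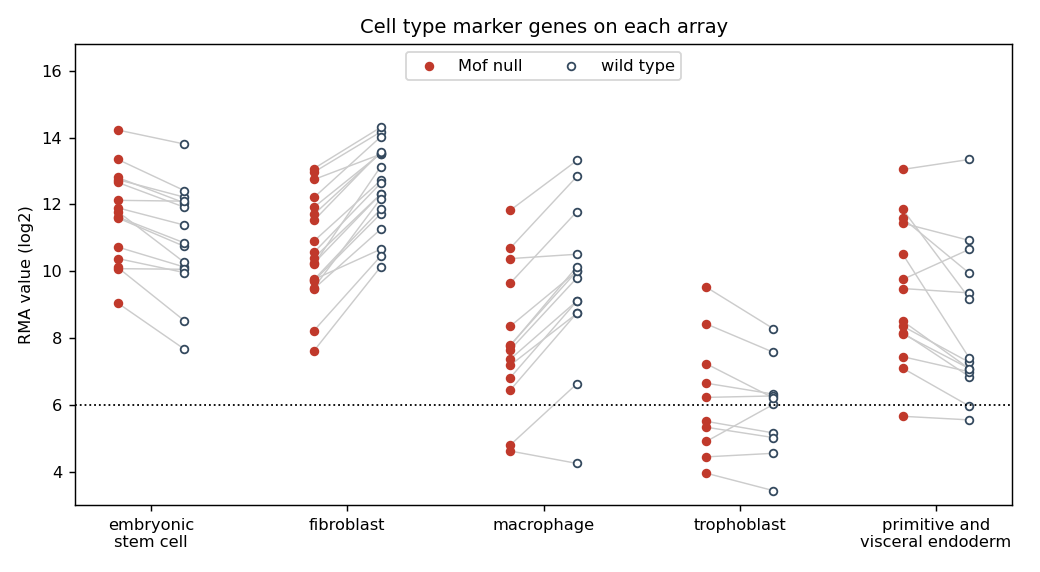
RMA values (log2, vertical axis) of the marker genes of 5 cell types on the Mof null array (filled, left) and the wild type array (open, right), each gene joined by a line; the dotted line is the level threshold of 6.02. All fibroblast lines run upward to the wild type array, as do all macrophage lines but that of Cx3cr1, which lies under the threshold, while the embryonic stem cell lines run slightly downward.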

How the data were processed

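Total RNA of 2 cultures was labelled with biotin and hybridised to 1 Affymetrix array each. The authors deposited 45101 probe set values per array on a log2 scale, using R 2.10.0, its affy package and RMA, per the submitters' processing notes; which arrays shared the RMA run, no source used here says. The scale was inferred from the range of the values, 2.85 to 14.67 on the Mof null array and 2.77 to 14.65 on the wild type array. RMA includes a quantile normalization that makes the distributions of arrays alike (the medians here were 6.01 on the Mof null array and 6.02 on the wild type array), which can hide a shift common to most transcripts, and 1 array per genotype limits the precision.

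Gene names came from the platform's annotation table; 35890 probe sets are listed there, 9211 are not and stayed unnamed, and 34945 name 1 gene. Neighbours and promoters came from RefSeq tables of GRCm38.p6. Named genes were the members, Kat8, up to 4 expressed genes of each list with the largest differences, Vim, Ctnnb1, Tjp1, Ocln, Dsp, Jup and the neighbours. Cdh4, Cdx2, Col4a1, Cx3cr1, Elf5, Foxa2, Grhl2, Hnf4a, Marveld2, Pdgfra, Snai1, Snai2, Tcf3, Tfcp2l1, Twist1 and Zeb1 were added after their values were seen. The members and lists were chosen with earlier results of these data known. Genes of the lists without a probe set of their own under the symbol used are not analysed here. Counting was tested on simulated data. Alternatives were other gene summaries, level filters, scalings and fold thresholds. Python 3.11.15, numpy 2.4.6, pandas 2.3.3, statsmodels 0.14.6 (lowess, span 0.3) and matplotlib 3.10.9 were used.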

Additional observations from a re-analysis of the deposited data

How the results depend on the processing

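No paired analysis was possible because each genotype has 1 array, and for the same reason no array could be left out. In 11 alternatives, the number of members at least 2-fold higher (3) moved by more than 1.5 times only at a threshold of 1.5-fold, where it was 5. It was 2 with the mean of the probe sets, relative to the embryonic stem cell markers, at 4-fold, and without _s_at, _x_at and _a_at probe sets. Epcam was the gene lost each time. It fell under 2-fold with the mean of its probe sets and relative to the embryonic stem cell markers. Leaving out the suffixed probe sets removes Epcam, Cldn3 and Krt8 altogether. The number at least 2-fold lower (1, Krt7) was 0 without _s_at, _x_at and _a_at probe sets, since its 1 probe set is of that kind, 0 with a level filter at percentile 75, since its values lie under that level, 0 at 4-fold, and 2 relative to the embryonic stem cell markers, where Krt18 joined it at -1.09. The median of the members was 1.18 at percentile 75, which leaves 6 genes, and -0.27 relative to the embryonic stem cell markers. At percentile 75, a level of 8.43, Cldn6 and Cldn7 stay only through the Mof null array, their wild type values being 6.66 and 6.62. The filter thus keeps them because they are high there, and the median of 1.18 rests partly on that. The genes of the 10 lists past 2-fold (31) numbered 16 at percentile 75, 56 at 1.5-fold and 8 at 4-fold. The fibroblast median was -2.65 relative to the embryonic stem cell markers. Of the other values, 148 moved by less than the pooled SD between probe sets and 28 by more. Among the 28 were the medians of the other cadherins (-0.35 with no level filter, -2.36 at percentile 75) and of the other intermediate filaments (0.60 at percentile 75). The median of the epithelial regulators also moved (0.57 with no level filter, 0.17 relative to the embryonic stem cell markers). These counts do not measure robustness, since many outcomes were fixed by the settings. A level filter cannot change the difference of a gene, nor can a probe set summary where a gene has 1 probe set. Centring shifts every difference by 0.10, under the pooled SD, and the embryonic stem cell scaling by 0.74, over it. As deposited, 29.95% of the expressed genes past 2-fold were higher, and 1.67% were so relative to the embryonic stem cell markers.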
